A study of Mus musculus with 51 samples.

Results

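The genes described here encode the voltage-gated sodium channels (Scn), the voltage-gated calcium channels (Cacna1, Cacna2d, Cacnb and Cacng), the HCN channels (Hcn) and the sodium leak channel Nalcn. They were chosen by gene symbol alone, which gave 44 of the 24564 genes in the deposited count table. The symbols cover 9 sodium channel pores and 4 sodium channel beta subunits, 10 calcium channel pores, 4 alpha2delta subunits, 4 calcium channel beta subunits, 8 members of the gamma family, 4 HCN pores and the leak pore. Scn2a1, the older symbol of the neuronal sodium channel pore Scn2a, is not matched by the symbol pattern and is given below only as a related gene.

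Midbrain dopaminergic and serotonergic neurons fire slowly and regularly without synaptic drive, and these channels are the ones that make and shape that rhythm. Sodium channel pores carry the action potential. L-type calcium pores, HCN pores, T-type calcium pores and the leak channel pass inward current between spikes, and the P/Q, N and R type calcium pores carry calcium into nerve terminals and dendrites. Alpha2delta and calcium channel beta subunits bring the calcium pores to the membrane and set their gating. Most gamma family members serve in neurons as auxiliary subunits of AMPA receptors rather than of calcium channels.

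RNA was measured by Smart-seq2, a full-length RNA-seq method for small inputs, in neurons sorted by FACS from adult mouse midbrain. The midbrain dopaminergic neurons, labelled mDA, came from the DatCreEed strain, in which Cre is driven from the dopamine transporter gene. The serotonergic neurons, labelled 5HT, came from the SertCreEed strain, in which Cre is driven from the serotonin transporter gene. Animals of each strain were labelled wt or PRC2 mutant, so the comparison addresses what follows in mature neurons when Polycomb repressive complex 2 is lost through its core subunit Eed, which the complex needs to place its repressive methyl mark on histone H3. For mDA there were 9 wt and 10 mutant animals aged 4 months and 8 wt and 8 mutant animals aged 8 months. For 5HT there were 4 animals of each genotype at each age. Each library came from 1 animal, and the sources used here do not spell out which alleles wt and mutant animals share beyond the strain name.

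Total counts per library ran from 1644460 to 12250492, and the 44 channel genes together took 0.351% to 0.535% of a library. Levels are given as CPM, the counts scaled to a common library total with TMM factors. The counting limit was taken as 3 counts, which stood for 0.245 to 1.82 CPM. Some values printed below lie under it. The labelled cell types carried their defining markers in wt animals: the 6 dopamine neuron markers summed to 5210 to 9810 CPM in wt mDA libraries, the 6 serotonin neuron markers summed to 6400 to 10500 CPM in wt 5HT libraries. Each list was also read in the other cell type. The dopamine markers summed to 2460 to 4120 CPM in wt 5HT and the serotonin markers to 2160 to 3650 CPM in wt mDA libraries. Slc18a2 and Ddc are in both lists, so each of these sums includes markers common to the 2 lists. No marker of either list was at 0 in any group. Counts of Eed over its whole gene were not lower in mutants (13.5 CPM in wt and 22.4 CPM in mutant mDA neurons at 8 months), so this count checks no genotype label. In mDA at 4 months, sequencing batch set1 held 3 wt animals, all male, and 4 mutants, all female, and set3 held 2 wt females and 2 mutant males. In mDA at 8 months, set3 held 2 wt females and no mutant. Sequencing batch within age and sex were therefore terms of the mDA fit. The share of counts in transcripts longer than 6000 bases also differed between libraries, from 22.1% in the 4-month mDA mutant C213 to 39.0% in the 4-month 5HT mutant S427. Most of the channel pores are such long transcripts, so this share is given beside the results.

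In wt neurons the channel genes were expressed at very unequal levels within each family. Levels of different genes are compared here only as CPM per kilobase of exon, and as the mean of a group. Among the sodium channel pores of central neurons, Scn3a stood at 69.8 CPM per kilobase in 8-month wt mDA neurons, Scn1a at 28.7 and Scn8a at 19.0. Scn2a1 stood between them at 51.4 CPM per kilobase. Scn9a, a pore best known from sensory neurons, stood at 17.9 CPM per kilobase in the same wt mDA neurons and at 30.9 in 8-month wt 5HT neurons. The muscle pore Scn4a and the sensory neuron pores Scn10a and Scn11a stayed at or under 0.452 CPM per kilobase in every wt group, and some of their libraries are near the counting limit. Of the sodium channel beta subunits, which modulate the gating and surface level of the pores, Scn3b (68.4 CPM per kilobase) and Scn2b (53.8) led in 8-month wt mDA neurons, and Scn4b was low at 1.8.

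The calcium channel pores were led in 8-month wt mDA neurons by the N type pore Cacna1b at 47.8 CPM per kilobase, the T-type pore Cacna1g at 38.9, the R type pore Cacna1e at 33.9 and the P/Q type pore Cacna1a at 25.1. Of the L-type pores, Cacna1d stood at 11.5 and Cacna1c at 5.35 CPM per kilobase, whereas the retinal pore Cacna1f and the skeletal muscle pore Cacna1s stayed under 1 in all wt groups. Hcn3 was the HCN pore with the highest level, at 24.6 CPM per kilobase in 8-month wt mDA and 31.0 in 8-month wt 5HT neurons. Hcn2 and Hcn4 stood at 2.81 and 1.33 CPM per kilobase in the same mDA neurons. The leak pore Nalcn was almost level across wt groups, between 17 and 18.1 CPM per kilobase. Cacng1 and Cacng6, the gamma subunits of muscle, had at most 3.92 CPM in any wt library and too few counts to be tested in the genotype comparisons within a cell type, which left 42 of the 44 genes.

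**Figure D1:**
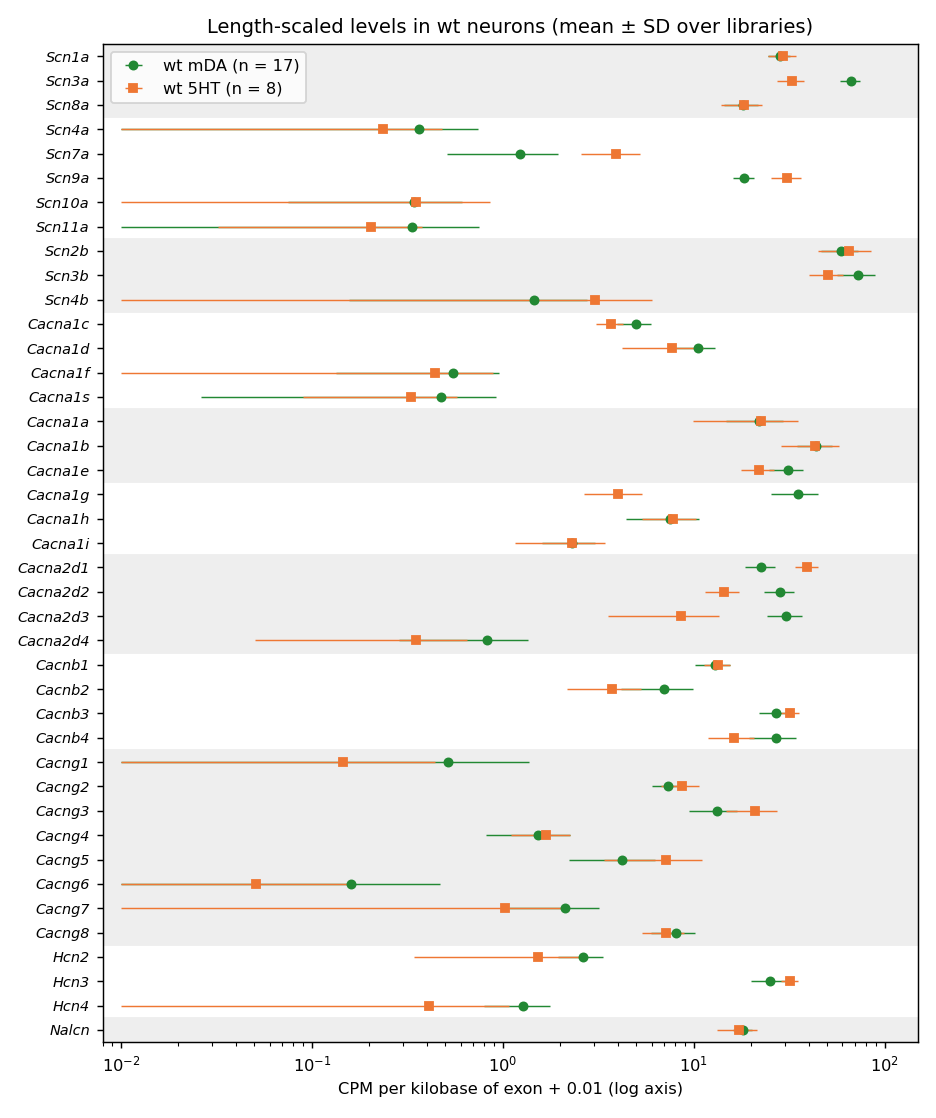
Level of 41 of the 44 channel genes in wt mDA and wt 5HT neurons, in CPM per kilobase of exon plus 0.01 on a log axis, grouped by role. Points are means and bars SDs over the 17 wt mDA and 8 wt 5HT libraries of both ages, and bars that reach the left edge extend to 0. Hcn3 sits above Hcn2 and Hcn4 in both cell types, and Cacna1g stands apart between them, with means by age of 31.4 to 38.9 in mDA and 3.1 to 4.9 in 5HT neurons.

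The start regions of 4 of these genes are shown because PRC2 acts at promoters rich in CG dinucleotides and because they span the range from a CG-poor to a CG-rich start. Each is the 250 bases before a transcript start of the gene in RefSeq for GRCm38.p6, written 5′ to 3′ on the strand of the gene, with every CG in capitals. Cacng5 (minus strand, chr11:107915056-107915305) is a gene whose counts rose in 8-month mDA mutants. Hcn2 (plus strand, chr10:79716384-79716633), Hcn4 (plus strand, chr9:58822699-58822948) and Nalcn (minus strand, chr14:123627145-123627394) are pacemaking genes.
Cacng5: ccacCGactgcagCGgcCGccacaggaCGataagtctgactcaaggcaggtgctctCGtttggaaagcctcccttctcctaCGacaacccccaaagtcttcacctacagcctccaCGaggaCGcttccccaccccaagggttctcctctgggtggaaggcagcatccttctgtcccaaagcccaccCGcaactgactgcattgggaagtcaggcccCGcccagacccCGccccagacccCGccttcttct
Hcn2: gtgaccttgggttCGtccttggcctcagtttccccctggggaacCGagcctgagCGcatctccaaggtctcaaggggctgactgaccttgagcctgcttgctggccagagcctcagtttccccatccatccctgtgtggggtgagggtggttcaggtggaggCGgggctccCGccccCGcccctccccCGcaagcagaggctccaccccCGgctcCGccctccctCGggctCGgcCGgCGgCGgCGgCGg
Hcn4: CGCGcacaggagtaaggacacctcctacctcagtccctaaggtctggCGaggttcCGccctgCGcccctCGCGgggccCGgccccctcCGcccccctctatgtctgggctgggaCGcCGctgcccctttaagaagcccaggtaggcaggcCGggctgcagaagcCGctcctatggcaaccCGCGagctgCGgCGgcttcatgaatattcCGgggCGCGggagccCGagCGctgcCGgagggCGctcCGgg
Nalcn: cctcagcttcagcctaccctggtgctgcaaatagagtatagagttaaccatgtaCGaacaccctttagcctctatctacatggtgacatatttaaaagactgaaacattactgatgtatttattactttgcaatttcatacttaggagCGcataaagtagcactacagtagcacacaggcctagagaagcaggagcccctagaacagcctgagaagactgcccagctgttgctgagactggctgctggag
Hcn4 held 25 CG in this window, more than 89.7% of genes in the RefSeq table, and Hcn2 held 16, more than 74.4%. Cacng5 held 12, more than 66.2% of genes, and Nalcn held 2, more than 19.4%. RefSeq start regions were at hand for 32 of the 44 channel genes, with a median of 8.5 CG against 6 over the first start of all genes. The start that RefSeq gives for Hcn4 lies 463 bases from the nearest GENCODE transcript start. The RefSeq span of Nalcn reaches position 123627330, inside the window shown, so much of that window lies within the annotated gene. The letters AAAGGTCA, bound by Nr4a2 and related receptors, were searched on both strands and were in 0 of the 32 windows at the first start RefSeq lists for each gene and in 1.31% of such windows of all genes. Of 10 windows at further starts of these genes 1, of Scn8a, held them. The letters TAATCC, bound by Pitx-type homeodomain proteins, were in 3 of the 32 first windows (9.38%), in 0 of the 10 further ones and in 6.38% of first windows of all genes. No binding or histone mark was measured in these libraries.

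The wt neurons of the 2 cell types differed in the channels they expressed. Comparing the 17 wt mDA with the 8 wt 5HT libraries over both ages, 11 channel genes were higher and 6 lower in mDA neurons (edgeR's quasi-likelihood test, adjusted p under 0.05), 17 of 42 tested or 40.5%, where 21.7% of all genes tested were called. Cacna1g, whose low-threshold current supports bursts and rhythmic firing, was higher in mDA neurons by 3.14 ± 0.18 (SE) on the log2 scale (adjusted p = 1.38e-15). Its level was 258 ± 61.1 CPM (SD, n = 9) and 320 ± 85.7 (SD, n = 8) in wt mDA at 4 and 8 months, and 40.3 ± 9.52 and 25.5 ± 7.64 (SD, n = 4 each) in wt 5HT. No wt 5HT library reached the lowest wt mDA library, which had 179 CPM.

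Cacna2d3, an alpha2delta subunit, was higher in mDA neurons by 1.83 ± 0.20 (adjusted p = 6.68e-09) and Cacna2d2 by 0.96 ± 0.12 (adjusted p = 1.4e-07), whereas their relative Cacna2d1, the main binding site of gabapentin, was lower by -0.83 ± 0.11 (adjusted p = 3.78e-07). The 2 cell types also differed in the order of the alpha2delta genes by mean level: in 8-month wt mDA neurons Cacna2d2, Cacna2d3 and Cacna2d1 stood at 29.4, 28.4 and 20.8 CPM per kilobase, and in 8-month wt 5HT neurons at 12, 6.47 and 40.3. Scn3a was higher in mDA neurons by 1.02 ± 0.11 (adjusted p = 3.73e-09) and the beta subunit Cacnb4 by 0.75 ± 0.15 (adjusted p = 0.000173). Cacnb2, Scn3b, Cacna1e, Cacna1c and Hcn4 were higher too, by 0.44 to 1.76 on the log2 scale.

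Lower in mDA than in 5HT neurons were Scn9a (-0.78 ± 0.11, adjusted p = 1.03e-06), Scn7a, a sodium-sensing relative of the sodium channel pores (-1.84 ± 0.32, adjusted p = 3.67e-05), Cacng5 (-1.04 ± 0.29, adjusted p = 0.00787), Cacng3 (-0.62 ± 0.17, adjusted p = 0.00837) and Hcn3 (-0.37 ± 0.13, adjusted p = 0.0313), all on the log2 scale. Within the HCN family the pores therefore stood in opposite directions, since Hcn4 was higher in mDA neurons by 1.76 ± 0.58 (adjusted p = 0.0247). Hcn4 read 2.61 to 12.7 CPM over 8 wt mDA libraries at 8 months and 0, 0.768, 2.45 and 3.41 CPM in the wt 5HT libraries of that age. At 4 months it read 2.88 to 11.4 CPM in wt mDA libraries and 0, 0.176, 0.713 and 12 CPM in wt 5HT libraries. The wt 5HT library S369, at 12 CPM, thus lay among the wt mDA libraries, and most of the others were near the counting limit. Mouse strain goes with cell type in these libraries. All wt 5HT libraries were of sequencing batch set1 and the wt mDA libraries of set1, set2 and set3, with no batch term in this fit. Differences between cell types, strains and batches therefore cannot be told apart.

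No channel gene passed edgeR's test between the ages of wt animals. Between 4 and 8 months 0 of 39 channel genes tested in wt mDA neurons were called by edgeR, where 0% of 13645 genes tested were called, and 6 had an unadjusted p under 0.05, as had 11.1% of all genes. In wt 5HT neurons 0 of 37 were called, where 0% of 13568 genes were, and 3 had an unadjusted p under 0.05, as had 5.09% of all genes. DESeq2 called 0 channel genes in wt mDA and 1 in wt 5HT neurons, where it called 1.01% and 0.251% of all genes. Cacna1a in wt 5HT neurons read 173, 179, 222 and 397 CPM at 4 months and 96.0, 98.1, 106.6 and 151 CPM at 8 months. The 2 ages did not overlap, and the difference of -0.93 ± 0.22 on the log2 scale missed the threshold by edgeR (adjusted p = 0.615) and passed it by DESeq2 (adjusted p = 0.029).

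At 8 months 7 channel genes differed between mutant and wt mDA neurons, and they fell into pores and a beta subunit that were lower, and auxiliary subunits of sodium channels and AMPA receptors that were higher. Of the 6 described here, the pores Scn3a, Cacna1a and Cacna1e and the calcium channel beta subunit Cacnb4 fell, and Scn2b and Cacng5 rose, by 0.54 to 1.29 on the log2 scale. The 7 were 16.7% of the 42 tested, where 4.32% of all genes tested were called. The median log2 fold change was -0.07 over the channel genes and 0.02 over all genes tested. By role, 1 of 3 central sodium pores, 2 of 3 P/Q, N and R type pores and 1 of 4 calcium channel beta subunits fell, and 1 of 6 gamma members tested rose. None of the L-type, T-type, alpha2delta, HCN or leak genes was called. In bulk libraries like these, fewer cells of a type and less RNA per cell cannot be told apart.

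Scn3a (GRCm38.p6, chr2:65457118-65567591), a sodium channel pore prominent in the developing brain, read 493.1 to 703 CPM (median 604) in the 8 wt libraries and 329 to 499 CPM (median 392) in the 8 mutants. All 8 mutants were below the wt median, and 6 of them were below every wt library. Its level fell by 0.63 (log2 units, SE 0.11, edgeR adjusted p = 6.49e-05). Scn2a1, its neighbour in the family, read 392 to 533 CPM (median 444) in wt and 327 to 436 CPM (median 364) in mutants, a log2 difference of -0.27 that missed the threshold (edgeR adjusted p = 0.151). Scn1a and Scn8a, the pores of adult fast-spiking and repetitively firing neurons, differed by 0.02 ± 0.13 and -0.07 ± 0.17 (adjusted p = 0.964 and 0.89).

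Scn4a (chr11:106317545-106365559) read 0.916 to 10.4 CPM in wt and 0 to 3.92 CPM in mutants. Wt D147 had 106 counts and wt D107 had 50, the other wt libraries 2 to 13 and the mutants 0 to 21. Its log2 difference of -2.39 ± 0.85 missed the threshold (adjusted p = 0.106).

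Scn2b (chr9:45117876-45130070), which encodes a beta subunit that is joined to the pore by a disulfide bond, read 166 to 271 CPM (median 218) in wt and 218 to 369.3 CPM (median 309) in mutants. All 8 mutants were above the wt median and 7 were above every wt library, the exception being D176 at 218 CPM. It rose by 0.81 ± 0.21 on the log2 scale (adjusted p = 0.0146). Scn3b differed by -0.21 ± 0.13 (adjusted p = 0.431).

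Cacna1a (chr8:84338631-84640251), the pore of the P/Q type channel that drives transmitter release, read 122 to 271 CPM (median 225.9) in wt and 87.9 to 143 CPM (median 102) in mutants. All 8 mutants were below the wt median, 5 were below every wt library and 3 lay within the wt range. It fell by 0.89 (log2 units, SE 0.20, adjusted p = 0.00424). Cacna1e (chr1:154390806-154884785), the R type pore, read 336 to 569.8 CPM (median 535) in wt and 328 to 410 CPM (median 352) in mutants. The lowest wt library, C49 at 336 CPM, lay among the mutants, and the other 7 wt libraries carried the difference. It fell by 0.54 (log2 units, SE 0.15, adjusted p = 0.024). The N type pore Cacna1b read 467 ± 78.8 CPM in wt and 388 ± 49.2 CPM in mutants (SD, n = 8 each), and its difference of -0.28 ± 0.15 missed the threshold (adjusted p = 0.317).

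Cacnb4 (chr2:52428320-52676609), a beta subunit that partners the P/Q type pore, read 135 to 352 CPM (median 283) in wt and 137 to 231 CPM (median 174) in mutants. All 8 mutants were below the wt median but none was below the lowest wt library. It fell by 0.55 (log2 units, SE 0.16, adjusted p = 0.0292). Cacng5 (chr11:107874604-107915055), an auxiliary subunit of AMPA receptors, read 4.64 to 27.3 CPM (median 13.2) in wt and 16.5 to 44.0 CPM (median 35.8) in mutants, of which 5 were above every wt library. It rose by 1.29 ± 0.32 on the log2 scale (adjusted p = 0.0101). Its relatives Cacng2, Cacng3 and Cacng8 differed by 0.25, 0.25 and 0.54 on the log2 scale and missed the threshold (adjusted p = 0.474, 0.642 and 0.349).

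**Figure D2:**
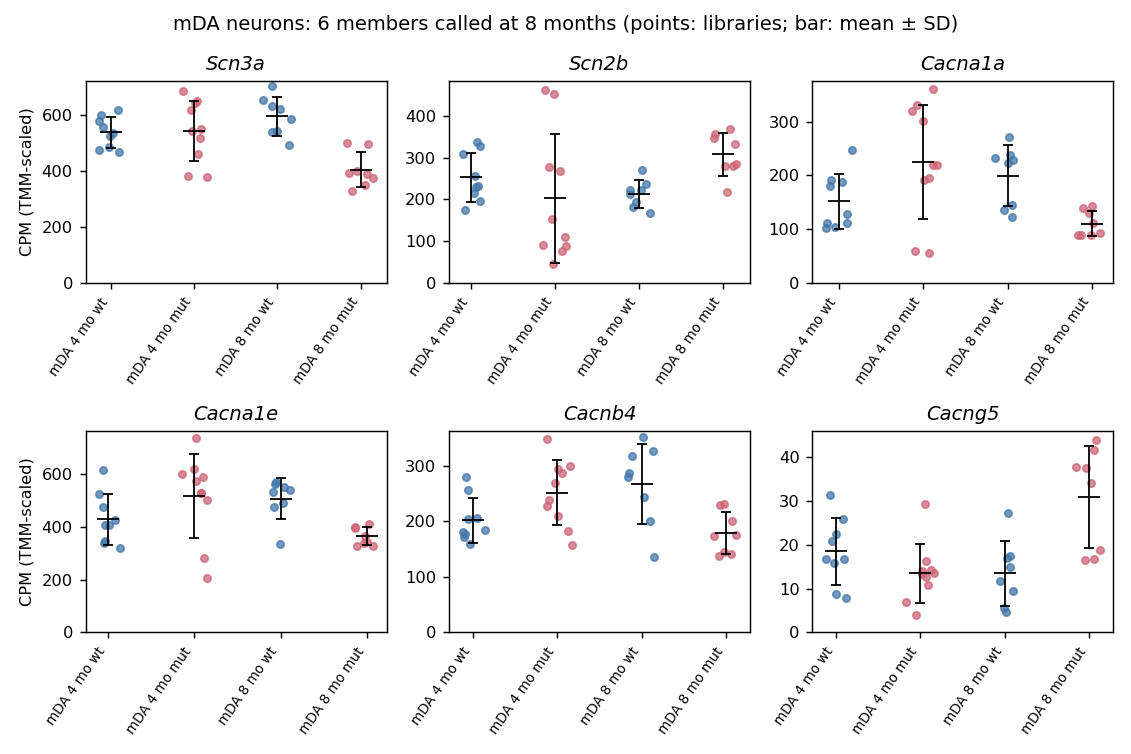
CPM in each mDA library, by genotype and age, of 6 genes called at 8 months, with 1 point per animal and the group mean with its SD. At 8 months the mutants sit lower for Scn3a (329 to 499 against 493.1 to 703 CPM in wt) and higher for Scn2b (218 to 369.3 against 166 to 271). At 4 months the 10 mutants lie on both sides of wt. For Scn3a 3 are above and 3 below every wt library, and for Scn2b 2 are above and 6 below.

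These calls rested on how batch and sex were handled. Without sequencing batch as a term Scn2b was no longer called (0.58, adjusted p = 0.236) and the other 6 were, where 5.2% of all genes were called. Without sex as a term 1 channel gene was called, Scn3a (-0.53, adjusted p = 0.00487), where 2.55% of all genes were called. Within sequencing batch set1 alone, with 4 wt and 4 mutants, 6 of the 7 were called, where 4.34% of all genes were. Cacna1e was not (-0.51, adjusted p = 0.0738). In this batch all wt animals but C45 were male and all mutants but C42 female, and sex was kept as a term of the fit. Within set2 alone, with 2 wt and 4 mutants, 0 were called by edgeR, where 0.639% of all genes were. The log2 differences there were -0.54 for Scn3a, -0.45 for Cacna1a, -0.06 for Cacnb4, -0.45 for Cacna1e, 0.19 for Scn2b and 0.55 for Cacng5. Set3 held wt animals only.

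Other cell type markers moved with genotype at 8 months. In mDA mutants 5 of 6 dopamine neuron markers fell, with a sum of 5210 to 9260 CPM in wt and 2990 to 3930 CPM in mutants. All 4 GABA or glycine neuron markers rose, with a sum of 115 to 266 CPM in wt and 486 to 706 CPM in mutants. Of 7 astrocyte markers 1 rose, with a sum of 311 to 562 CPM in wt and 397 to 1290 CPM in mutants, the highest being D176. Of 8 endothelial or mural markers 1 rose, with a sum of 4.81 to 41.9 CPM in wt, 617, 311 and 625 CPM in the mutants D161, D170 and D176 of set2, and 5.18 to 24.8 CPM in the other 5. Of the 6 serotonin neuron markers 1 rose and 1 fell, with a sum of 2300 to 3650 CPM in wt and 1150 to 1420 CPM in mutants. Slc18a2 and Ddc enter both this sum and that of the dopamine neuron markers. None of these markers was at 0 in any group. Their part in the channel results was not tested. Without D176 edgeR called 7 channel genes, where 4.27% of all genes were called. Within set1, which holds none of D161, D170 and D176, 6 of the 7 were called, and within set2 alone 0. Those fits called 4.34% and 0.639% of all genes. They do not address the dopamine, serotonin and GABA or glycine markers, whose sums lay outside the wt range in every mutant.

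At 4 months 0 of the 42 channel genes were called between mutant and wt mDA neurons by edgeR, where 1.17% of all genes tested were called. Of the 42, 10 had an unadjusted p under 0.05, as had 14.5% of all genes. DESeq2 called 1, Cacna1c, where it called 2.28% of all genes. The median log2 fold change was 0.18 over the channel genes and -0.01 over all genes. Cacna1c, the L-type pore also known from the heart, read 49 to 87.4 CPM (median 67.5) in wt and 26.6 to 176.4 CPM (median 115) in mutants. The 10 mutants lay on both sides of wt, 8 above every wt library and 2, C213 and C214, below every one. Its log2 difference was 0.54 ± 0.16 by edgeR (adjusted p = 0.0806) and 0.59 by DESeq2 (adjusted p = 0.0237).

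Those 2 mutants stood apart in other channel genes as well. Cacna1a read 55.4 CPM in C213 and 59.5 CPM in C214, 301 to 361 CPM in the 4 mutants of set1, and 102 to 247 CPM in wt. Scn2b read 453 and 463 CPM in C213 and C214, 44.2 to 89.7 CPM in the set1 mutants, and 175.6 to 338 CPM in wt. Libraries of 1 genotype thus lay on opposite sides of wt for both genes. The share of counts in transcripts over 6000 bases was 22.1% and 23.5% in C213 and C214, 35.5% to 38.2% in the set1 mutants, and 25.7% to 32.1% in 4-month wt. Without C213 and C214 edgeR called 9 channel genes at 4 months, where 8.12% of all genes were called: the calcium pores Cacna1c (0.84), Cacna1a (0.64), Cacna1g (0.64), Cacna1d (0.56), Cacna1e (0.42) and Cacna1b (0.39) and the sodium pore Scn8a (0.46) were higher, and Scn2b (-0.75) and Scn3b (-0.46) lower, on the log2 scale. Within set1 alone 12 were called, 10 higher and 2 lower, where 11.2% of all genes were called, and in set1 every wt animal was male and every mutant female. Without set1 0 were called, where 0.129% of all genes were.

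**Figure D3:**
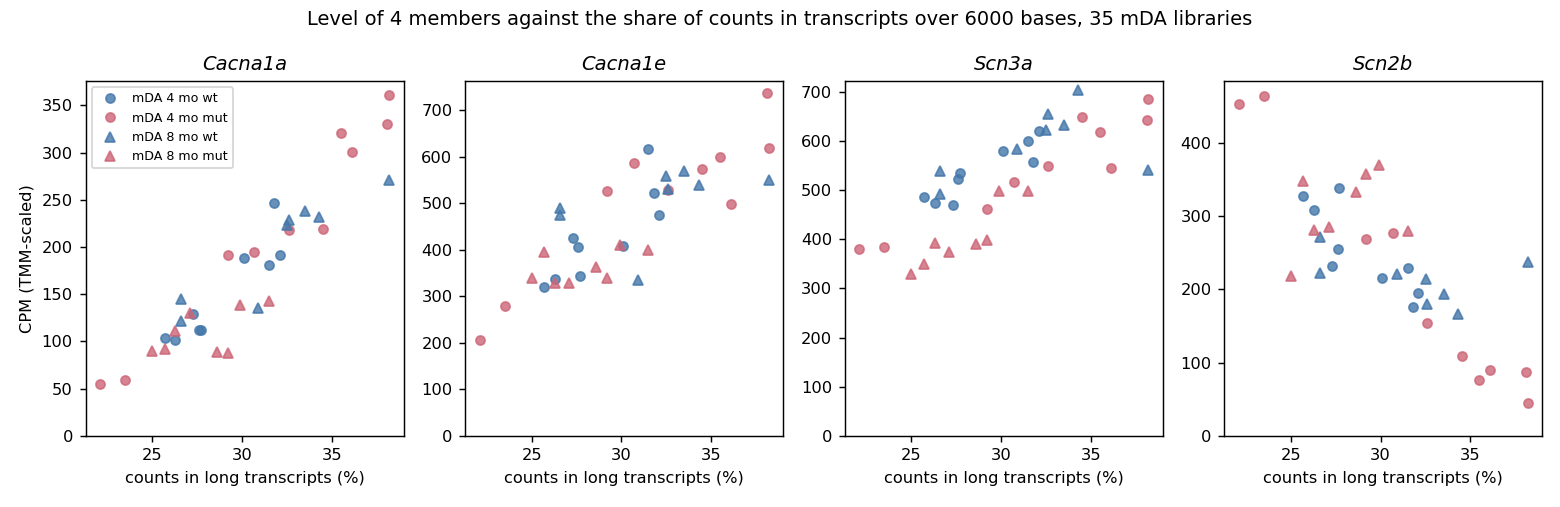
CPM of Cacna1a, Cacna1e, Scn3a and Scn2b (vertical) against the share of counts in transcripts longer than 6000 bases (horizontal, percent), with 1 point per library for the 35 mDA libraries, coloured by genotype and shaped by age. Libraries with a higher share read higher for Cacna1a, Cacna1e and Scn3a and lower for Scn2b, with C213 and C214 at the left end at 22.1% and 23.5% and the 4-month mutants of set1 at 35.5% to 38.2%.

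The genotype effect on mDA neurons differed between the ages for 9 channel genes, tested as the effect at 8 months minus that at 4 months. Of the 42 tested, 3 had a more positive and 6 a more negative effect at 8 months, 21.4%, where 6.11% of all genes tested were called. The median difference was -0.14 over the channel genes and 0.02 over all genes. All 7 genes called at 8 months were among the 9, and Scn4a, not called at either age, was another. Marker lists moved in the same comparison: 4 of 6 dopamine neuron markers had a more negative effect at 8 months, and 4 of 4 GABA or glycine neuron, 3 of 6 oligodendrocyte, 2 of 7 astrocyte and 1 of 3 glutamate neuron markers a more positive one. Of the serotonin neuron markers 1 of 6 had a more negative effect. Their part in the channel results was not tested.

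Of the 10 calcium channel pores, 2 were called between the ages, and these and the beta subunit Cacnb4 went from positive to negative log2 differences. Cacna1a stood at 0.35 ± 0.17 at 4 months and -0.89 ± 0.20 at 8 months, a difference of -1.24 ± 0.25 (edgeR adjusted p = 0.00287). Cacna1e stood at 0.21 and -0.54, a difference of -0.74 ± 0.19 (adjusted p = 0.0128). Cacnb4 stood at 0.29 and -0.55, a difference of -0.84 ± 0.20 (adjusted p = 0.00747). None of these 3 was called at 4 months, so the sign there rests on no call.

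Of the sodium channel pores, Scn3a had a log2 difference of -0.02 ± 0.09 at 4 months, where wt read 538 ± 55.4 CPM (SD, n = 9) and mutants 543 ± 109 CPM (SD, n = 10), and the difference between ages was -0.61 ± 0.14 (adjusted p = 0.00555). Scn4a went from 1.31 ± 0.64 to -2.39 ± 0.85, a difference of -3.69 ± 1.03 (adjusted p = 0.0253), with no 8-month library above 10.4 CPM, and without D176 it was no longer called (-3.35, adjusted p = 0.0506). A sodium channel beta subunit and a gamma member went the other way. Scn2b went from -0.44 ± 0.17 to 0.81 ± 0.21, a difference of 1.25 ± 0.27 (adjusted p = 0.0041), and Cacng5 from -0.30 to 1.29, a difference of 1.59 ± 0.40 (adjusted p = 0.0138).

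**Figure D4:**
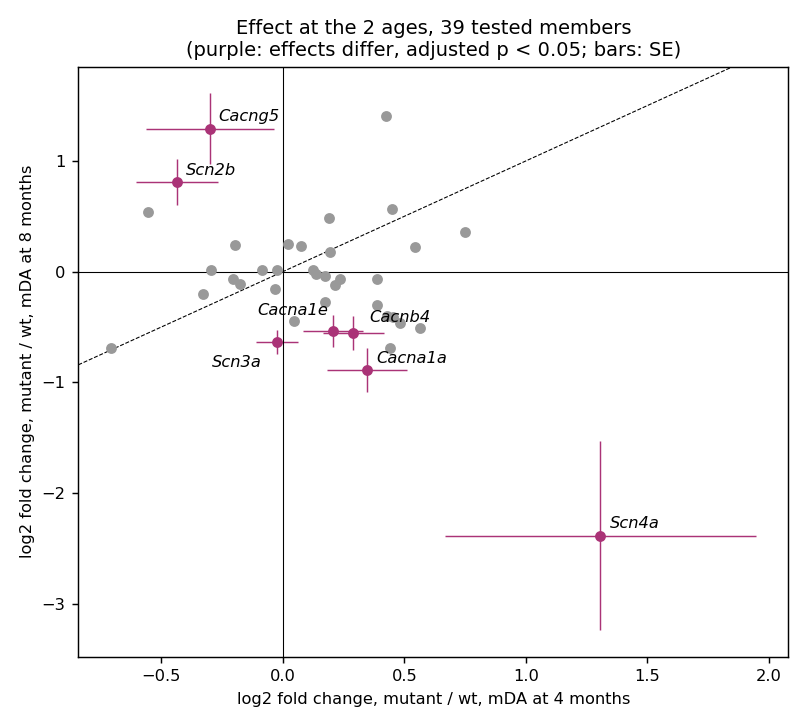
Log2 fold change of mutant against wt mDA neurons at 8 months (vertical) against that at 4 months (horizontal) for 39 of the 42 channel genes tested, with genes whose effect differed between ages in purple, named and given SE bars; the dashed line marks equal effects. Scn2b and Cacng5 lie in the upper left, Cacna1a, Cacna1e, Cacnb4 and Scn4a in the lower right, and Scn3a just left of 0 on the 4-month axis.

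Transcript length went with the sign of these differences. The longest transcripts of Cacna1a, Scn3a, Cacnb4 and Cacna1e have 7926, 8550, 8225 and 14921 bases, and those of Scn2b and Cacng5 have 3958 and 3705. Over all genes with a known length the median difference between ages was -0.17 on the log2 scale for transcripts over 6000 bases and 0.07 for shorter ones, and at 8 months alone the medians were -0.08 and 0.03. At 8 months the share of counts in long transcripts was 26.6% to 38.2% in wt and 25% to 31.5% in mutant mDA libraries. With this share as a term, edgeR called 0 channel genes for the difference between ages and 3 at 8 months, where 0.395% and 2.5% of all genes were called: Scn3a stayed lower (-0.46, adjusted p = 0.000779), Scn3b was lower (-0.42, adjusted p = 0.0441) and Cacna1c higher (0.63, adjusted p = 0.0249). Of the genes called without this term, the log2 difference then was -0.34 for Cacna1a, -0.40 for Cacnb4, -0.22 for Cacna1e, 0.30 for Scn2b and 1.07 for Cacng5. Leaving out the 4 mutants of set1 at 4 months left 1 call between ages, Scn4a, where 0.565% of all genes were called. The share itself went with genotype in some batches, so its effect and that of genotype cannot be told apart.

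No HCN or leak gene was called by edgeR between mutant and wt mDA neurons at either age. The L-type and T-type pores were not called either when all libraries were fitted, but Cacna1c, Cacna1d and Cacna1g were called higher at 4 months without C213 and C214 and within set1 alone. Hcn3 read 79.2 to 129.7 CPM (median 99.8) in 4-month wt and 75.5 to 140.5 CPM (median 108) in 4-month mutants, and 54.6 to 129 CPM (median 104) in 8-month wt and 77.4 to 132 CPM (median 96.9) in 8-month mutants. The groups overlapped almost wholly, with log2 differences of 0.12 ± 0.12 at 4 months and 0.01 ± 0.15 at 8 months. Hcn2 stood at -0.41 ± 0.32 and Hcn4 at 0.48 ± 0.42 at 8 months.

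Nalcn, which carries the resting sodium leak, read 103 to 145 CPM (median 133) in 8-month wt mDA neurons and 90.2 to 146 CPM (median 114) in mutants, a log2 difference of -0.11 ± 0.14. At 4 months its difference was -0.18 ± 0.11. Cacna1d, the L-type pore of dopaminergic pacemaking, read 78.8 to 153 CPM in 8-month wt and 60.3 to 139.7 CPM in mutants, with group means of 102 CPM in both and a log2 difference of -0.07 ± 0.18. At 4 months it stood at 0.39 ± 0.15 (adjusted p = 0.201). Of the T-type pores, Cacna1g stood at 0.39 ± 0.15 at 4 months and -0.30 ± 0.18 at 8 months (adjusted p = 0.201 and 0.398), and Cacna1h and Cacna1i differed by 0.17, -0.04, 0.19 and 0.18 in the same order of ages.

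**Figure D5:**
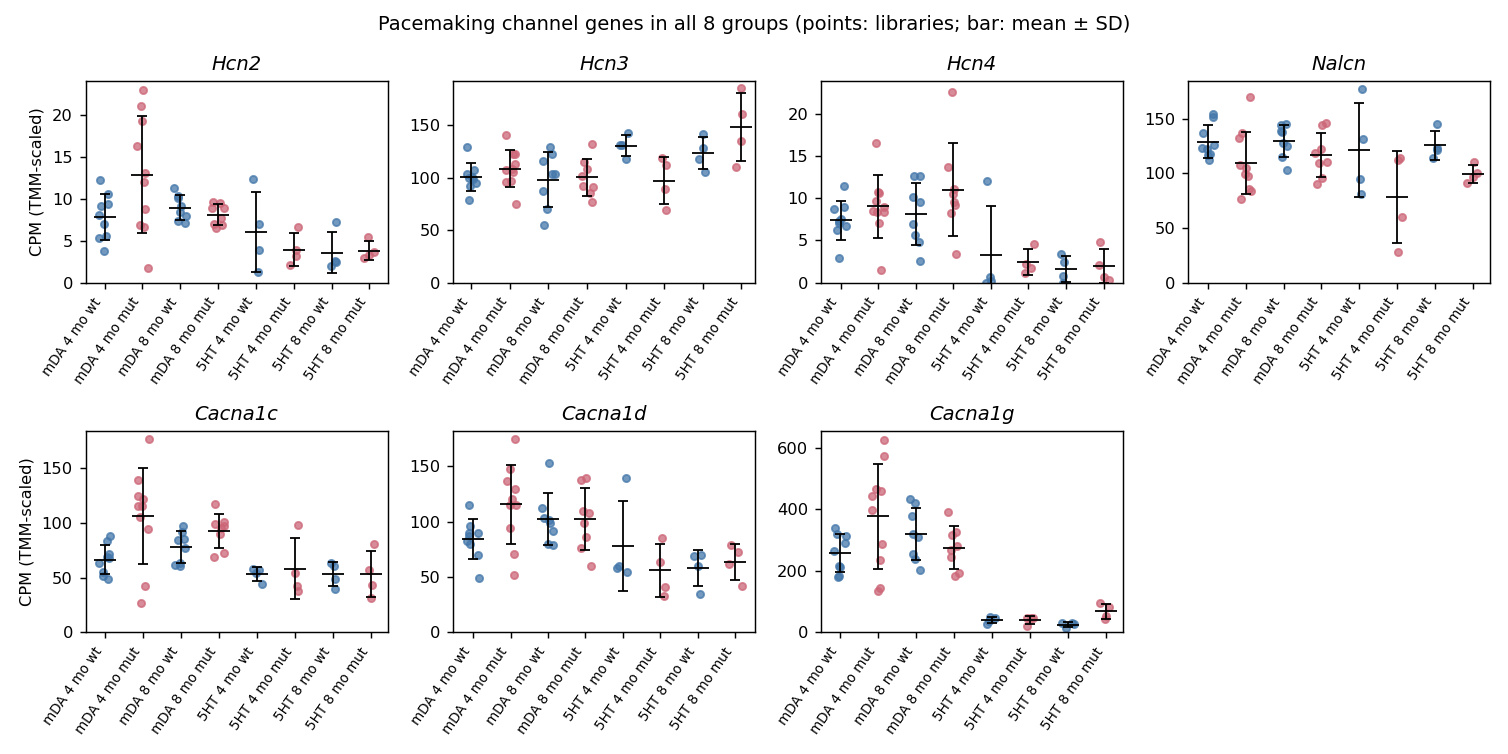
CPM of 7 pacemaking genes in each library of the 8 groups, with 1 point per animal and the group mean with its SD. Cacna1g in 5HT neurons at 8 months reads 14.1 to 30.4 in wt and 42.6 to 94.8 in mutants.

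In 5HT neurons edgeR called no channel gene at either age. At 4 months edgeR called 0 of 42, where 0.0128% of all genes were called. Of the 42, 2 had an unadjusted p under 0.05, as had 6.4% of all genes. DESeq2 called 0, where it called 0.307% of all genes. At 8 months edgeR called 0 of 42, where 0.397% of all genes were called. Of the 42, 2 had an unadjusted p under 0.05, as had 4.9% of all genes. DESeq2 called 1, Cacna1g, where it called 1.13% of all genes. The difference between the ages had 0 of 42 called, where 0.0128% of all genes were. An unadjusted p under 0.05 was found for 2, as for 3.97% of all genes. By DESeq2 0 were called, where 0.179% of all genes were. With 4 animals a group, the approximate SEs of the values below, 0.20 to 0.42 on the log2 scale, set the size of change that could be called. Groups of 4 can also separate fully by chance, and the share of all genes that did so was not counted. Besides the genes below, Scn7a did not overlap at 4 months, at 15.6 to 26.7 CPM in wt and 30.6 to 65.1 CPM in mutants.

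Cacna1g read 14.1, 28.7, 28.9 and 30.4 CPM in the 8-month wt 5HT libraries and 42.6, 52.2, 83.0 and 94.8 CPM in the mutants. The groups did not overlap, and the log2 difference was 1.27 ± 0.32 by edgeR (adjusted p = 0.114) and 1.29 by DESeq2 (adjusted p = 0.014). At 4 months it read 28.2, 37.7, 45.4 and 49.9 CPM in wt and 22.1, 47.3, 47.5 and 48.1 CPM in mutants, a log2 difference of 0.02 ± 0.31. Every 5HT mutant at 8 months stayed below the mDA libraries, the lowest of which, the 4-month mutant C213, had 135 CPM.

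Cacng5 in 8-month 5HT neurons read 23.4, 27.3, 37.0 and 49.9 CPM in wt and 52.3, 79.9, 84.2 and 91.9 CPM in mutants. The groups did not overlap, and its log2 difference of 1.16 ± 0.42 missed the threshold (edgeR adjusted p = 0.529). At 4 months it read 3.9, 14.6, 24.0 and 39.4 CPM in wt and 37.9, 41.0, 41.1 and 42.3 CPM in mutants, a log2 difference of 0.99 ± 0.42 (adjusted p = 0.736). For comparison, the 8-month mDA difference of Cacng5 was 1.29, and the difference between the cell types was 0.11 ± 0.53 (adjusted p = 0.984).

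Nalcn in 8-month 5HT neurons read 114, 121, 123 and 145 CPM in wt and 91.4, 96.5, 100.1 and 110.5 CPM in mutants. These groups did not overlap either, and the log2 difference of -0.39 ± 0.31 missed the threshold (edgeR adjusted p = 1). At 4 months it read 81.5, 94.4, 132 and 177 CPM in wt and 28.1, 59.7, 112 and 114 CPM in mutants (-0.60 ± 0.30, adjusted p = 0.811). Hcn3 read 118, 131, 131 and 143 CPM in 4-month wt and 69.3, 89.4, 112 and 119 CPM in mutants, overlapping by 1 library, with a log2 difference of -0.41 ± 0.20 (adjusted p = 0.783). At 8 months the Hcn3 difference was 0.31 ± 0.20. Cacna1a read 96.0, 98.1, 106.6 and 151 CPM in 8-month wt and 51.5, 77.0, 78.2 and 105 CPM in mutants, overlapping in part, with a log2 difference of -0.54 ± 0.30 (adjusted p = 1). With the long-transcript share as a term Cacna1a alone was called there (-0.76, adjusted p = 0.0294), where 0.774% of all genes were called.

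Markers moved with genotype in these libraries too. At 8 months 4 of 6 serotonin neuron markers fell, with sums of 8910 to 10500 CPM in wt and 2350 to 3020 CPM in mutants. Of 5 dopamine neuron markers tested 2 fell, with sums of 3760 to 4120 CPM over all 6 in wt and 1490 to 1750 CPM in mutants. Slc18a2 and Ddc enter both these sums and those of the serotonin neuron markers. Of 4 GABA or glycine neuron markers 2 rose, with sums of at most 272 CPM in wt and 513 to 581 CPM in mutants. None was at 0 in any group. Their part in the values of Cacna1g, Cacng5 and Nalcn was not tested.

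The genotype effect at 8 months differed between mDA and 5HT neurons for 1 of 43 channel genes tested, Cacna1g, where 0.179% of all genes were called. Its effect was -0.30 in mDA and 1.27 in 5HT neurons, and the difference, fitted over all 51 libraries, was -1.63 ± 0.37 on the log2 scale (edgeR adjusted p = 0.0312). Leaving out the 5HT animal S381, S383, S442 or S443 ended this call, with differences of -1.42 to -1.67, and leaving out any of the other 4 5HT animals of that age gave -1.70 to -1.85. With the long-transcript share as a term 0 were called, and DESeq2 called 2, Cacna1g and Scn3a. These fits called 0.131% and 0.549% of all genes. At 4 months 0 of 43 channel genes differed between the cell types by edgeR, where 0.0925% of all genes were called. Of the 43, 4 had an unadjusted p under 0.05, as had 9.46% of all genes. DESeq2 called 0, where it called 0.968% of all genes. Scn3a, which fell in mDA mutants at 8 months, had a difference between cell types of -0.81 ± 0.20 by edgeR (adjusted p = 0.081) and -0.86 by DESeq2 (adjusted p = 0.00626).

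Genes outside the symbol pattern whose proteins bind or regulate these channels were followed as a list of 20 tested genes. At 4 months 0 of 20 were called in mDA and 0 in 5HT neurons by edgeR, where 1.17% and 0.0128% of all genes were. At 8 months in mDA neurons 0 rose and 2 fell, where 4.32% of all genes were called, with a median log2 difference of -0.18 over the list. Fam155a, a chaperone-like partner of the leak channel, read 113 ± 14.5 CPM in wt and 85.6 ± 14.3 CPM in mutants (SD, n = 8 each) and fell by 0.47 (log2 units, SE 0.14, adjusted p = 0.0404). Pex5l, which encodes the HCN auxiliary subunit TRIP8b, read 56.9 ± 14.2 CPM in wt and 39.9 ± 9.15 CPM in mutants and fell by 0.69 (SE 0.20, adjusted p = 0.0365). The pores these proteins serve, Nalcn and the HCN family, were not called in the same comparison.

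In 8-month 5HT neurons 1 of the 20 was called, where 0.397% of all genes were. Rimbp2, which ties calcium channels to the presynaptic release site, read 162.2, 202.3, 221.1 and 225.9 CPM in wt and 71.9, 78.1, 86.5 and 119.7 CPM in mutants, and the groups did not overlap. It fell by 1.21 (log2 units, SE 0.22, adjusted p = 0.00885), and in 8-month mDA neurons its difference was -0.18 ± 0.18 (adjusted p = 0.648). The effect in mDA minus that in 5HT neurons was 1.04 ± 0.28 and was not called (edgeR adjusted p = 0.137). The 5HT effect at 8 months minus that at 4 months, -1.07 ± 0.30, was not called either (edgeR adjusted p = 0.606). Between the ages of mDA neurons 4 of the 20 differed, where 6.11% of all genes were called: Calm2, a calmodulin gene, by 1.0 ± 0.25 (adjusted p = 0.0117), and Pex5l, Rims2 and Fam155a by -1.10 ± 0.26, -0.83 ± 0.23 and -0.60 ± 0.18 (adjusted p = 0.00801, 0.0207 and 0.0381). At 4 months Calm2 read 862 and 716 CPM in C213 and C214, 128 to 188 CPM in the mutants of set1 and 346 to 669 CPM in wt, so it too lay on both sides of wt.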

How the data were processed

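For 51 libraries, unnormalized counts of reads on each gene were deposited by the authors. The submitters' processing notes name STAR 2.7.0a as aligner and mm10 or GRCm38 as build; how reads were assigned to genes, and whether strand was used, is not given in the sources used here. No sample column was left out (0 unused), 0 pairs of columns were identical, and replicates of a group differed beyond counting noise (chi-square per degree of freedom of 6.97 or more). Total counts per library were 1644460 to 12250492. Limits from 3 counts cover counting error only. Replicate names mark separate animals, per the labels.

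Tests used edgeR 4.0.16 under R 4.3.3. Low genes were removed by filterByExpr per group (minimum count 10), libraries were scaled by TMM, and robust quasi-likelihood models were fitted. A gene was called where its p, Benjamini-Hochberg adjusted over all genes tested, was under 0.05. A single model held the 35 mDA libraries, with terms for sequencing batch within age and for sex. The 16 5HT libraries were modelled with sex as a term, and differences between cell types over all 51 with both. Wt cell types were compared in 25 wt libraries with sex as a term. The wt ages were compared within each cell type, in mDA with the batch label shared over ages. Each SE is approximate, being the size of the log2 fold change over the root of its F statistic. The fits were tested on simulated counts with known changes. Of changes of 2-fold, 64% and 51% were recovered in mDA at 4 and 8 months, and 16% and 12% in 5HT. Of changes of 4-fold, 88% and 79% were recovered in mDA, and 55% and 54% in 5HT. In the same order 7 of 159, 11 of 141, 1 of 72 and 8 of 74 calls were false.

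Alternatives were RLE scaling, no count filter, DESeq2 1.42.0, fits without batch or sex, single batches, and fits without single libraries. The long-transcript share as a term, and the fits without C213 and C214, were added after the data were seen. Share of long transcripts used the longest transcript, known for 97.7% of genes. Coordinates and start regions are those of RefSeq for GRCm38.p6. Exon and transcript lengths are those of GENCODE transcripts paired with the RefSeq accessions of each gene. GENCODE transcripts were also used to check starts. Overlapping or antisense genes may share reads, since strand use in counting is not known here.

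Genes given with values were those called in a genotype comparison, in a difference of effects or between wt cell types, and the pacemaking and neuronal sodium pores throughout. Cacna1b, Scn4a and Scn3b at 8 months in mDA, relatives in the gamma family, and 5HT values of Cacng5 and Cacna1a were added after their values were seen. The channel genes, partner list and marker lists were chosen with earlier results of these data known. Of the 44 channel genes, 3 are not reported individually here, and counts and medians include them.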

Additional observations from a re-analysis of the deposited data

Results flagged for a closer look

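The levels of 18 channel genes were examined in 144 combinations of gene and group for a library far from the rest of its group, and 15 held one, by a criterion that chance meets in about 1 in 20 groups. Of these, 3 were wt S381 in 8-month 5HT neurons: Hcn2 read 7.26 CPM against 1.98 to 2.61 in the other wt animals, Cacna1g read 14.1 CPM against 28.7 to 30.4, and Cacna1i read 10.4 CPM against 24.3 to 25.3. The low Cacna1g value of S381 widens the gap to the mutants, and the difference between cell types lost its call without this library. Wt S369, 1 of the 2 5HT libraries with a high share of counts in long transcripts, read 12 CPM for Hcn4 against 0 to 0.713 in the other 4-month wt animals and 139 CPM for Cacna1d against 54.2 to 60.1. S427, the other such library, read 321 CPM for Scn8a against at most 179 in the other 4-month mutants.

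Further 5HT libraries that stood apart were S429, with 22.1 CPM for Cacna1g against 47.3 to 48.1 and 0.928 CPM for Scn4a against 0.326 to 0.396 in 4-month mutants. These Scn4a values were 6 counts in S429 and 1 or 2 counts in the others, at or near the counting limit. Cacna1h read 44.7 CPM in wt S383 against 64.9 to 67.5, and 93.1 CPM in mutant S447 against 59.1 to 61.6, both at 8 months. Cacna1e read 228 CPM in the 8-month mutant S443 against 324 to 343. In mDA neurons, wt C45 read 153 CPM for Cacna1d against 78.8 to 112, wt C49 read 336 CPM for Cacna1e against 474 to 569.8, and wt D147 read 10.4 CPM for Scn4a against 0.916 to 4.24, all at 8 months. The 4-month mutant C214 read 29.3 CPM for Cacng5 against 3.86 to 16.2.

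The genotype effect on mDA neurons differed between 8 and 4 months by the test of the difference itself. For 7 of the 9 genes called, the difference on the log2 scale was 1.59 for Cacng5, 1.25 for Scn2b, -0.61 for Scn3a, -1.24 for Cacna1a, -0.84 for Cacnb4, -0.74 for Cacna1e and -3.69 for Scn4a. The genotype effect at 8 months differed between mDA and 5HT neurons for Cacna1g, by -1.63.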

How the results depend on the processing

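Counts of called channel genes stayed within 1.5 times the reported count in 93 recomputations and moved in 17. Of single genes, 744 values kept their direction and side of the threshold, 49 fell short of it and 11 newly passed it, and 0 reversed. No paired analysis was possible because replicate names are animal numbers that no groups share.

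In mDA at 8 months (7 reported), 1 gene was called without the sex term, 0 within set2 alone and 3 with the long-transcript share. Of all genes 2.55%, 0.639% and 2.5% were called in these fits. In mDA at 4 months (0 reported), 1 was called by DESeq2, 12 within set1 alone and 9 without C213 and C214. These fits called 2.28%, 11.2% and 8.12% of all genes. For the difference between mDA ages (9 reported), 0 were called with the long-transcript share and 1 without the 4 set1 mutants. The shares of all genes called were 0.395% and 0.565%. In 5HT at 8 months (0 reported), 1 was called by DESeq2 and 1 with the long-transcript share, where 1.13% and 0.774% of all genes were. For the difference between cell types at 8 months (1 reported), 2 were called by DESeq2 and 0 with the long-transcript share. Leaving out single 5HT animals gave 0 to 1. In this order, 0.549%, 0.131% and 0.0628% to 0.183% of all genes were called. For the ages of wt 5HT neurons (0 reported), DESeq2 called 1, where it called 0.251% of all genes. Apart from the smaller sample numbers of single batches and omissions, the cause was not tested. Leaving out single animals left 0 channel genes called in each 5HT genotype comparison, where at most 0.299% of all genes were called. The 5HT groups of 4 animals limit the precision of every 5HT value.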
